A study of Mus musculus with 15 samples.

Results

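Gene expression was compared between mouse embryonic stem cells with an inducible Map3k3 transgene that received the inducing drug and the same cells that did not. The comparison uses 6 of the 15 arrays of the series, chosen by their labels, and all genes measured on them. The tested cells carried a tetracycline-inducible Map3k3 transgene on a Nat1-null background and received doxycycline (Dox, the drug that switches such transgenes on), with 3 arrays. The uninduced cells were of the same line, equally Nat1-null, and received no Dox, also with 3 arrays. Both groups therefore lack the gene called Nat1 in the labels, today named Eif4g2. The other 9 arrays, 3 per group, came from Nat1-null cells with an inducible EGFP transgene and Dox, from Nat1-null cells without a transgene and from wild-type cells. All cells were grown on gelatin without Dox unless stated, and total RNA was hybridised to single-colour Agilent arrays. The dose and duration of Dox, the promoter region of the transgene and whether the line is 1 clone are not given in the sources used here.

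Map3k3, also known as MEKK3, is a serine/threonine kinase at the top of MAP kinase cascades. It phosphorylates MAP kinase kinases, through which signals reach the kinases ERK5, JNK and p38, and it also acts on the NF-kB pathway. These cascades end at transcription factors such as AP-1, a dimer of Fos and Jun proteins, and they switch on their own brakes, the dual-specificity phosphatases that dephosphorylate MAP kinases. Eif4g2, also known as DAP5, resembles part of the scaffold protein eIF4G and starts translation of a subset of messenger RNAs, and mouse embryonic stem cells without it differentiate poorly.

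Values are log2 signals relative to the 75th percentile of the same array, and each gene is represented by its brightest detected probe. Genes with a limma adjusted p under 0.05 and a change of 1.5-fold or more were called, and only these are said to have risen or fallen. Whether the 3 samples of each group came from separate cultures is not stated in the labels. The p-values therefore cover the variation among these arrays alone, and part of it may be technical. The 75th percentile of the 6 arrays lay between 494 and 614 units, and their number limits the precision. The second array with Dox stood apart, with 42.7% of probes well above background and a lowest signal of 12.7 units. The other 5 arrays of the line had at least 47.8% and at most 7.57 units. All 6 arrays lay on 1 slide, but the 3 arrays without Dox and array 1 with Dox were in row 1 of it, and arrays 2 and 3 with Dox in row 2.

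The labels were checked first. Eif4g2 read 1.64, 1.54 and 1.64 with Dox and 1.72, 1.43 and 1.70 without Dox, against a mean of 4.31 in wild-type cells, so the signal was equally low in both groups of the line (log2 difference -0.01, limma adjusted p = 0.956). Map3k3 itself read -0.48, -0.36 and -0.67 with Dox and -0.75, -0.44 and -0.86 without Dox. The groups overlapped and the difference of 0.18 was not called (SE 0.12, adjusted p = 0.236). No source used here says whether this probe can detect the transgene, and it therefore does not check the induction. All 8 embryonic stem cell markers (Pou5f1, Sox2, Nanog, Zfp42, Esrrb, Utf1, Dppa5a and Fgf4) were detected on every array of both groups. Their summed level, the sum of signals relative to the 75th percentile, was 942 to 996 with Dox and 1225 to 1288 without Dox. Such a sum adds signals that are not in log2, so it follows the brightest markers.

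Many genes differed between the arrays with and without Dox. Those that passed the 1.5-fold minimum were mostly higher with Dox, in part by very large factors. Without that minimum, 2604 genes were higher and 3143 lower at a limma adjusted p under 0.05. Induction below means growth with Dox, since expression of the transgene could not be checked. Of 14431 genes tested, 2578 were called (17.9%), of which 1771 rose (12.3%) and 807 fell (5.59%). The median change was 1.35 among the genes that rose and -0.86 among those that fell, while over all genes tested it was -0.07. Rises reached further than falls. The following counts use changes with undetected arrays of the lower group raised to their detection limit. At least 4-fold changes numbered 451 rises and 23 falls, and at least 8-fold changes 201 rises and 0 falls, although limma called 807 falls in all. The limit shortens changes both ways and sets the 0 in part. It took A2m from -3.32 to -2.31, Pga5 from -3.23 to -2.53 and Crct1 from 10.28 to 9.00. At least 64-fold rises were found for 14 genes. In 7226 genes (50.1%) the arrays with Dox did not overlap the arrays without Dox. For 729 of the calls the fold is at best a lower bound, written as at least so many fold, because the lower group was not above background on all of its arrays. No fold could be given for 99 calls, where the higher group was undetected or lay below the detection limit of the lower group. In these bulk samples, fewer cells of a type and less RNA per cell cannot be told apart. With slide row as a block 2373 genes were called, and within row 1, where array 1 with Dox is set against the 3 arrays without Dox and is assumed to vary like the other groups, 2042 were. Without array 2 with Dox, 2410 were called, of which 2185 were also called with it.

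**Figure D1:**
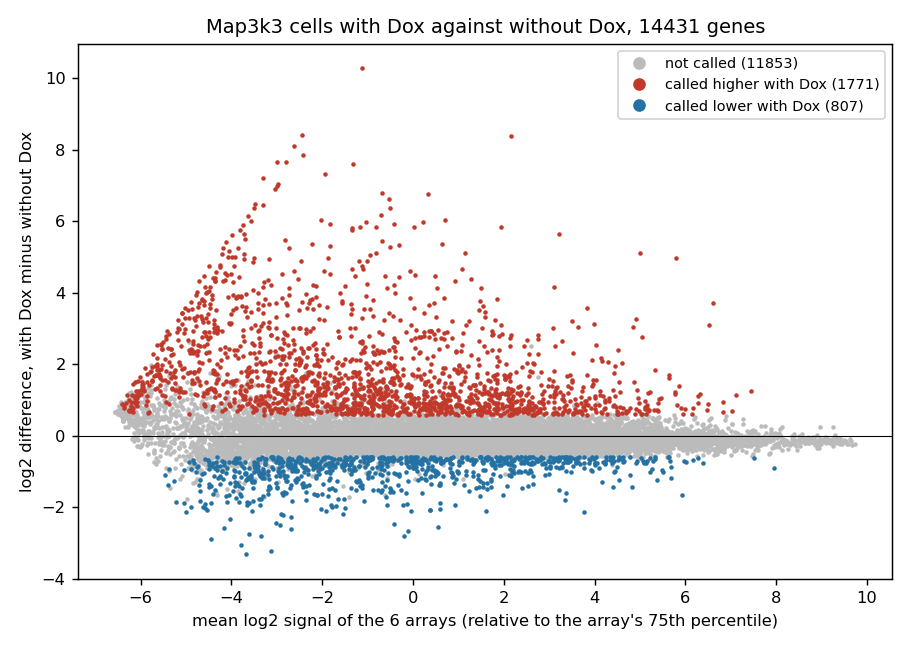
Difference between Map3k3 cells with and without Dox for each of 14431 genes (vertical axis, log2) against the mean signal of the 6 arrays (horizontal axis, log2 relative to the array's 75th percentile). Red points are the 1771 genes called higher with Dox and blue points the 807 called lower; the rises extend to 10.28, while few falls lie below -2.

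The largest rise was that of Crct1, a gene of the epidermal differentiation complex. Its signal was 3.92, 4.35 and 3.79 with Dox, against -6.19, -6.81 and -5.77 without Dox, where no array was above background. The groups lay far apart, and the rise was at least 511-fold (log2 change 10.28, SE 0.23, adjusted p = 4.79e-11). Anxa1, which encodes a calcium-dependent phospholipid-binding protein, read 6.15, 6.76 and 6.13 with Dox and -1.77, -2.93 and -1.44 without Dox. It was detected on all 6 arrays and rose 336-fold (log2 change 8.39, SE 0.55, adjusted p = 3.13e-07). Slc25a24, a mitochondrial ATP-magnesium carrier, was almost equal on the arrays with Dox (2.49, 2.53 and 2.45) and undetected without Dox (-5.51, -5.22 and -4.62), a rise of at least 152-fold.

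The other large rises are given with what each gene encodes. Dmkn, expressed in skin, rose 111-fold, Prss23, a serine protease, at least 106-fold, the matricellular gene Thbs1 at least 105-fold and Edn2, a vasoactive peptide gene, at least 88.8-fold. Thbs1 illustrates the separation with 1.28, 2.26 and 1.66 with Dox and -5.33, -5.97 and -5.50 without Dox. Prss23 was highest on array 2 with Dox, at 2.92, while the other arrays with Dox gave 1.21 and 1.12. Within the cell, Fhl2, a LIM-domain cofactor of actin-linked transcription, rose 109-fold, Phldb2, which anchors microtubules at the cell cortex, 97.7-fold, and Crybg1 at least 69.4-fold. Itpripl2 rose at least 83.1-fold and Gpat3, a glycerol-3-phosphate acyltransferase, 63.2-fold. Lce3c, a late cornified envelope gene, rose at least 85.1-fold, and Hand1, a transcription factor of trophoblast and heart, at least 64.7-fold.

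**Figure D2:**
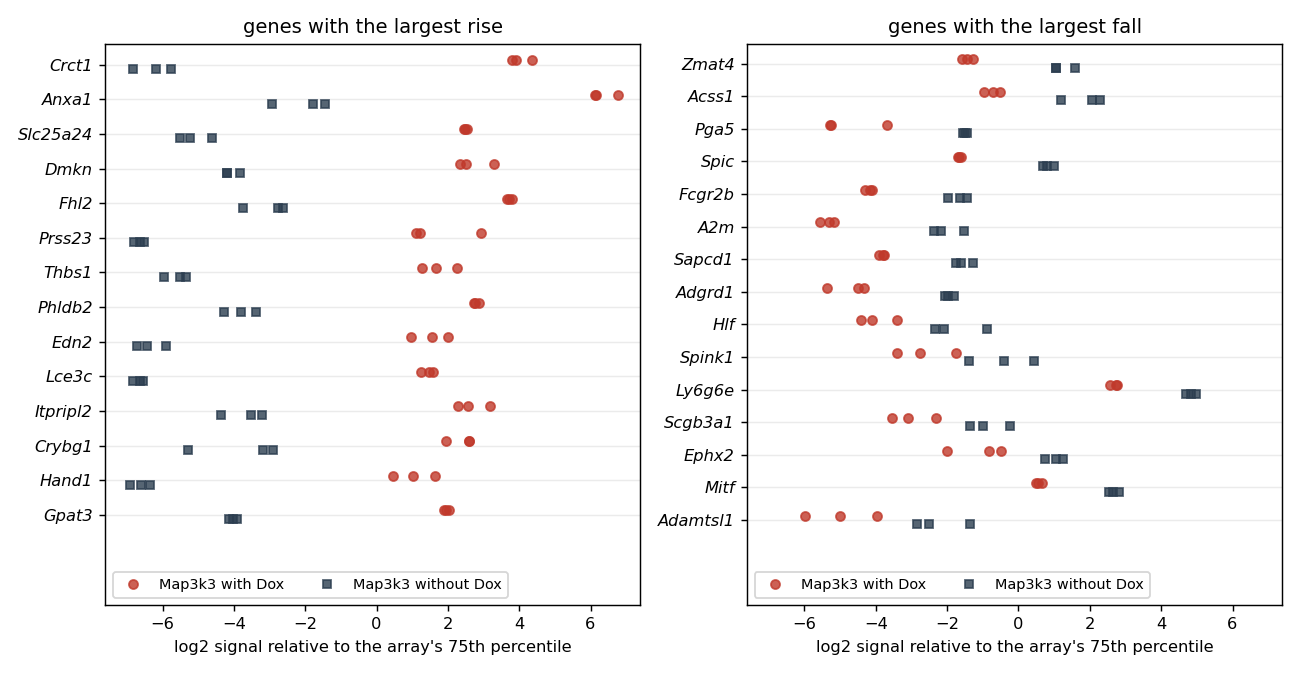
Signals on each array (horizontal axis, log2 relative to the array's 75th percentile) of 14 of the 15 genes with the largest rise (left) and the 15 with the largest fall (right); circles are the 3 arrays with Dox and squares the 3 without Dox. Genes are ordered by the change after undetected arrays are raised to their detection limit; the mean differences are 10.28 for Crct1 and 5.98 for Gpat3, at the ends of the left panel, and -2.67 for Zmat4, at the top of the right panel.

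The falls were smaller. Zmat4, a zinc-finger gene, read -1.58, -1.29 and -1.44 with Dox and 1.05, 1.60 and 1.05 without Dox, a 6.35-fold fall (log2 change -2.67, SE 0.21, adjusted p = 1.76e-06). Acss1, a mitochondrial acetyl-CoA synthetase, fell 5.91-fold. The Ets-family transcription factor gene Spic was tight in both groups, at -1.61, -1.66 and -1.69 with Dox and 0.80, 0.99 and 0.68 without Dox, and fell 5.57-fold. Mitf, the transcription factor of the melanocyte lineage, fell 4.31-fold to 0.66, 0.50 and 0.53 with Dox, against 2.65, 2.81 and 2.55 without Dox. Its level with Dox was close to the wild-type mean of 0.52 (difference 0.04, not called in a comparison with wild type that called 38.3% of genes).

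Several of the other large falls concern secreted and surface proteins at low signal. Pga5, a pepsinogen gene, fell at least 5.78-fold, and Fcgr2b, which encodes an inhibitory receptor for antibodies, at least 5.01-fold. Falls of at least 4.97-fold, 4.76-fold and 4.28-fold were found for the protease inhibitor A2m, the G-protein-coupled receptor Adgrd1 and the secreted protein Adamtsl1. Ly6g6e, a Ly6-family surface protein gene, was well above background and fell 4.41-fold. Sapcd1 fell at least 4.79-fold, the clock-output transcription factor gene Hlf at least 4.63-fold, the secretoglobin gene Scgb3a1 4.33-fold and Ephx2, which encodes soluble epoxide hydrolase, 4.33-fold. Spink1, a trypsin inhibitor gene, fell 4.54-fold (adjusted p = 0.0178), and this call was lost without array 1 with Dox (log2 change -1.80) or without array 2 without Dox (-1.74).

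Gene lists are described by how many measured members were called. A member counts as measured when detected throughout at least 1 of the 5 groups, so a member detected only with Dox had to differ, and these counts do not stand for all listed genes. The lists were also picked with earlier results of these data known. Over all genes tested 12.3% rose and 5.59% fell, 17.9% in total. These shares are given here once, as a description, for all lists below, and the differences from them were not tested. Of 26 measured genes of the MAP kinase cascade 3 rose and 1 fell, a share of 15.4% called that is near the 17.9% of all genes, with a median change of 0.01. The other 22 lay between -0.35 and 0.76. Mapk13, a p38 kinase, read 2.64, 2.11 and 2.52 with Dox and 1.34, 1.14 and 1.60 without Dox, a 2.09-fold rise. Mapk7, which encodes ERK5, the kinase classically placed downstream of Map3k3, was flat at 4.24, 4.22 and 4.20 with Dox and 4.23, 4.24 and 4.28 without Dox. The calls of Mapk12 (0.69), Mapkapk2 (0.67) and Map3k1 (-0.65) lay near the fold minimum: Mapk12 and Mapkapk2 were not called without array 2 without Dox (0.48 and 0.52), and Map3k1 was not called without array 2 with Dox (-0.56).

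The phosphatases that switch MAP kinases off were called more often. Of 11 measured dual-specificity phosphatase genes 8 rose and none fell by limma, with a median change of 2.41. Dusp5, which acts on nuclear ERK, read -1.83, -1.59 and -2.00 with Dox and was undetected without Dox at -6.54, -6.18 and -5.59, a rise of at least 9.00-fold. Dusp10, which acts on JNK and p38, rose at least 14.6-fold, Dusp14 13.0-fold and Dusp9 8.58-fold. Dusp4 rose 6.72-fold, Dusp2 5.30-fold and Dusp1, the founding member, 4.92-fold, and Dusp8 rose 3.74-fold. The call of Dusp8 (log2 change 1.90) was lost with slide row as a block (1.72), in row 1 alone (1.66) and without array 1 without Dox (1.54), which leaves 7 rises in row 1. Dusp6, the cytoplasmic ERK phosphatase, read 4.22, 4.91 and 4.31 with Dox and 4.66, 4.67 and 4.74 without Dox, with overlapping groups and no call (log2 change -0.21, adjusted p = 0.281). Dusp7 and Dusp16 changed by 0.08 and -0.17 and were not called.

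Genes of the early response did not change alike, even within a family. Of 13 AP-1 subunit genes 6 rose and none fell, while without array 2 with Dox 5 rose and 1 fell. Fosl1, a Fos-family subunit, read 0.17, 0.67 and 0.15 with Dox and -2.97, -3.57 and -2.72 without Dox, a 10.7-fold rise (log2 change 3.42, SE 0.37, adjusted p = 2.05e-05). Atf3 rose 7.36-fold, Fosl2 6.59-fold, Fosb 2.99-fold and Jun 2.61-fold. The sixth, Jund, lay at the fold minimum (0.61, adjusted p = 0.03) and was not called when array 1 without Dox was left out (0.40). Fos itself read -1.89, -0.96 and -1.99 with Dox and -1.18, -0.72 and -1.20 without Dox, overlapping and not called (-0.58, adjusted p = 0.0667). It was called lower without array 2 with Dox (-0.91) and in row 1 alone (-0.86).

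Among 16 immediate early and ERK feedback genes, 5 rose and 3 fell. The stress-inducible gene Ier3 rose 12.5-fold, Errfi1, a feedback inhibitor of EGF receptors, 9.31-fold, and Phlda1 8.67-fold, while Ier5 rose at least 5.36-fold from no detection. Egr1, the zinc-finger factor usually induced with Fos, went the other way with 0.80, 1.74 and 0.67 with Dox and 2.06, 2.76 and 2.23 without Dox, a 2.43-fold fall. Of 14 NF-kB subunit and target genes 4 rose, and 2 did without array 2 with Dox. The 2 were Tnfaip3, the feedback inhibitor A20, with a 6.29-fold rise, and the adaptor gene Traf1 with a 4.56-fold rise. The inhibitor gene Nfkbia changed by 0.10 and was not called. Among MEF2 and Kruppel-like factor genes Klf6 rose 4.14-fold, Klf7 2.36-fold and Mef2d, a factor phosphorylated by ERK5, 1.95-fold, while Klf10 fell 1.71-fold.

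Promoter windows around the gene starts were read from RefSeq (build GRCm38.p6), which held at least 1 window for 11467 of the genes tested. The AP-1 letters TGANTCA, which read the same on both strands, were present in 7.77% of windows of genes that rose and in 10.8% of those of genes that rose at least 8-fold. They were present in 4.66% of windows of genes that fell, in 5.32% of windows of all genes tested and in 7.81% of all windows in the table. The higher share at 8-fold or more was not particular to AP-1. TEAD letters were in 19.5% of those windows, against 12.4% for all genes tested. NF-kB, CArG box, TATA and GATA letters were also more frequent there. ETS letters were less frequent (7.69% against 24.5%), as were GC box letters. None of these differences was tested. A match is a description of the letters, not a binding site, and windows of a gene can overlap. Windows of 3 genes that rose are shown because they hold the AP-1 letters, printed in capitals, and were chosen for that. Sprr1a lies at chr3:92485832-92486131 on the minus strand and has matches at positions -146 and -116 from its start, Il11 at chr7:4778092-4778391 on the minus strand with a match at -98 (in 1 of its 2 windows), and Plaur at chr7:24462233-24462532 on the plus strand with a match at -69.
Sprr1a: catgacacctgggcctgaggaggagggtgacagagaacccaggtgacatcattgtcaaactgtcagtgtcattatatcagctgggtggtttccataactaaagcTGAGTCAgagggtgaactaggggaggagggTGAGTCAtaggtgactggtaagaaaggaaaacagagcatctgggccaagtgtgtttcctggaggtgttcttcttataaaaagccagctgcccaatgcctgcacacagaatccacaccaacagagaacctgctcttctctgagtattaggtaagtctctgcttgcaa
Il11: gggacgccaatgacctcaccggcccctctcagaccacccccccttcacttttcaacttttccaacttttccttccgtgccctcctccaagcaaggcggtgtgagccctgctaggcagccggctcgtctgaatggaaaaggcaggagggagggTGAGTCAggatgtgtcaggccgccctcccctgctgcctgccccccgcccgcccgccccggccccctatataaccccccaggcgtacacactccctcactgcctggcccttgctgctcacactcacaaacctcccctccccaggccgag
Plaur: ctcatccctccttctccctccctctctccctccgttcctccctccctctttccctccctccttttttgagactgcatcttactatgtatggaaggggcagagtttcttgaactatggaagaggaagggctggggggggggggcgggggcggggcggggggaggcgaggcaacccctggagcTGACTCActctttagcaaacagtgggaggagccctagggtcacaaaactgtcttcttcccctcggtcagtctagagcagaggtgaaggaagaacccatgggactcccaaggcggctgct

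These genes rose strongly. Il11, a cytokine of the interleukin-6 family, read 1.34, 2.66 and 1.23 with Dox and -3.92, -4.11 and -4.25 without Dox, a 57.2-fold rise. Sprr1a, a cornified envelope precursor, was tight with Dox (1.12, 1.31 and 0.97), undetected without it (-4.76, -4.88 and -4.69) and rose at least 57.4-fold. Plaur, the urokinase receptor, was detected on all arrays and rose 4.49-fold, with 5.13, 5.61 and 4.97 with Dox and 3.26, 2.45 and 3.49 without Dox.

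Of 37 listed growth factor and cytokine genes 26 were measured, of which 18 rose and none fell. Their median change was 2.20, or 1.46 with undetected values at their bound. Of the 10 detected on all 15 arrays 5 rose. Csf1, the macrophage colony-stimulating factor, read 0.36, 0.75 and 0.17 with Dox and -6.13, -6.82 and -6.52 without Dox, a rise of at least 42.2-fold (adjusted p = 3.64e-10). The chemokine genes Ccl2 and Cxcl10 rose by at least 23.9-fold and by at least 16.3-fold, and Cxcl16 rose 6.76-fold. Tgfb3 rose at least 7.83-fold, Edn1 at least 7.20-fold, and Hbegf, a ligand of EGF receptors, 2.96-fold from an already high signal. Csf2 rose at least 5.68-fold, but its arrays with Dox differed widely, at -3.11, -0.84 and -3.47, with array 2 the highest, against -6.60, -6.84 and -6.14 without Dox. The other 8 genes, among them Vegfa (0.06) and Tgfb1, lay between -0.19 and 1.16 and were not called.

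Many cytoskeletal and adhesion genes were called higher. Of 20 actin-related and SRF target genes 13 rose, of 18 YAP-TEAD targets 12, and of 17 integrin and focal adhesion genes 13, with none falling in these lists and medians of 0.91, 1.28 and 0.86. Ccn1, a secreted matricellular protein and standard YAP readout, read 3.25, 3.88 and 3.28 with Dox and -0.68, -1.32 and -0.72 without Dox, a 20.8-fold rise, and Ccn2 rose 6.44-fold. The receptor kinase gene Axl rose 22.2-fold, the angiomotin gene Amotl1 4.37-fold and the Hippo kinase gene Lats2 3.05-fold, while Yap1 itself changed by 0.21 and was not called. Acta1, skeletal actin, rose at least 9.36-fold, Cald1, an actin-binding regulator, 9.87-fold and Zyx, a focal adhesion protein, 5.71-fold. The smooth muscle gene Tagln rose 3.50-fold, but Cnn1 and Myl9 changed by -0.03 and 0.36 and were not called, although both were far higher in wild-type cells (3.47 and 3.22, against -1.75 and -1.94 with Dox). Itga3, a laminin-binding integrin, rose 7.60-fold and Parva, a focal adhesion adaptor, 6.74-fold.

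Most genes of proteases and their inhibitors rose. Of 18 measured genes 12 rose and 2 fell, and the 2 falls were not stable. With normexp background correction 9 rose and 0 fell. Of the 8 genes detected on every array of the series 5 rose and 1 fell. The fall of Adamts9 was lost in 9 of 22 alternatives, among them the fit without array 2 with Dox. The urokinase gene Plau was undetected without Dox and rose at least 10.6-fold, Adamts1 at least 17.4-fold and Mmp9 at least 7.78-fold. The inhibitor gene Timp2 read 3.82, 3.62 and 3.83 with Dox and 0.02, -0.27 and 0.04 without Dox, a 14.2-fold rise. The gelatinase gene Mmp2 fell at least 1.85-fold, a call that was lost in row 1 alone (-0.96).

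Of 26 listed epidermal differentiation genes 17 were measured, of which 12 rose and none fell. Their median change was 4.32, or 2.77 with undetected values at their bound. The other 9, among them Ivl, Flg and Loricrin, were not measured. Of the 7 genes of the list detected on all 15 arrays 4 rose. On chromosome 3 the 5 neighbouring genes Lce3a, Lce3b, Lce3c, Lce3d and Crct1 all rose. Lce3a and Lce3b were undetected without Dox and rose by at least 11.8-fold and by at least 46.0-fold, and Lce3d rose 17.6-fold. Cnfn rose 27.1-fold, Sbsn 19.9-fold, and Tgm1, the cross-linking enzyme of the envelope, 2.61-fold. Trp63, the master regulator of epidermis, read 2.39, 2.55 and 2.65 with Dox and 2.53, 2.78 and 2.81 without Dox, overlapping and not called. Of 5 epidermis markers Ivl was undetected on every array with Dox, and their summed level was 7.86 to 8.73 with Dox and 6.03 to 7.26 without Dox. The brightest marker in this sum was Trp63.

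Of 12 measured keratin genes 8 rose and none fell, with a median change of 2.46, and of the 7 detected on all 15 arrays 6 rose. Krt20, a keratin of gut and bladder lining, read 0.12, -0.24 and -0.09 with Dox and -6.48, -6.71 and -6.39 without Dox, a rise of at least 30.0-fold. Krt18 and Krt8, which pair in simple epithelia, rose 31.2- and 17.7-fold and Krt19 8.04-fold, while Krt17 changed by 0.14 and was not called. Krt7 rose at least 49.9-fold but was low on array 2 in both groups, at 0.12 with Dox beside 2.34 and 2.11, and at -5.44 without Dox beside -3.72 and -3.53. Of 25 junction genes 13 rose and 1 fell. The desmosome genes Dsc2 and Dsp rose at least 28.2-fold and 10.9-fold, the claudin genes Cldn3 and Cldn6 11.5- and 9.92-fold, and Ocln 7.91-fold. Cdh1, E-cadherin, rose 1.80-fold. The N-cadherin gene Cdh2 also rose, 9.40-fold, with 1.39 on array 2 with Dox beside -1.22 and -1.23 on the others, and -3.61, -3.35 and -3.80 without Dox.

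Among annexin and S100 genes 11 of 20 rose and 1 fell. Beside Anxa1, the gene Anxa3 rose 61.0-fold (2.55, 2.52 and 2.54 with Dox, against -3.31, -4.18 and -2.69 without Dox). Anxa2 rose 8.50-fold, S100a4 13.8-fold and S100a6 13.2-fold, whereas Anxa6, Anxa7 and Anxa11 changed by 0.06, 0.39 and 0.43 and were not called. Basement membrane genes were mixed. The collagen IV genes Col4a1 and Col4a2 rose 9.19- and 14.6-fold and the laminin gene Lamb3 at least 24.2-fold, while the embryonic laminin gene Lama1 fell 2.35-fold, with 4.47, 5.12 and 4.69 with Dox and 5.91, 6.15 and 5.92 without Dox.

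**Figure D3:**
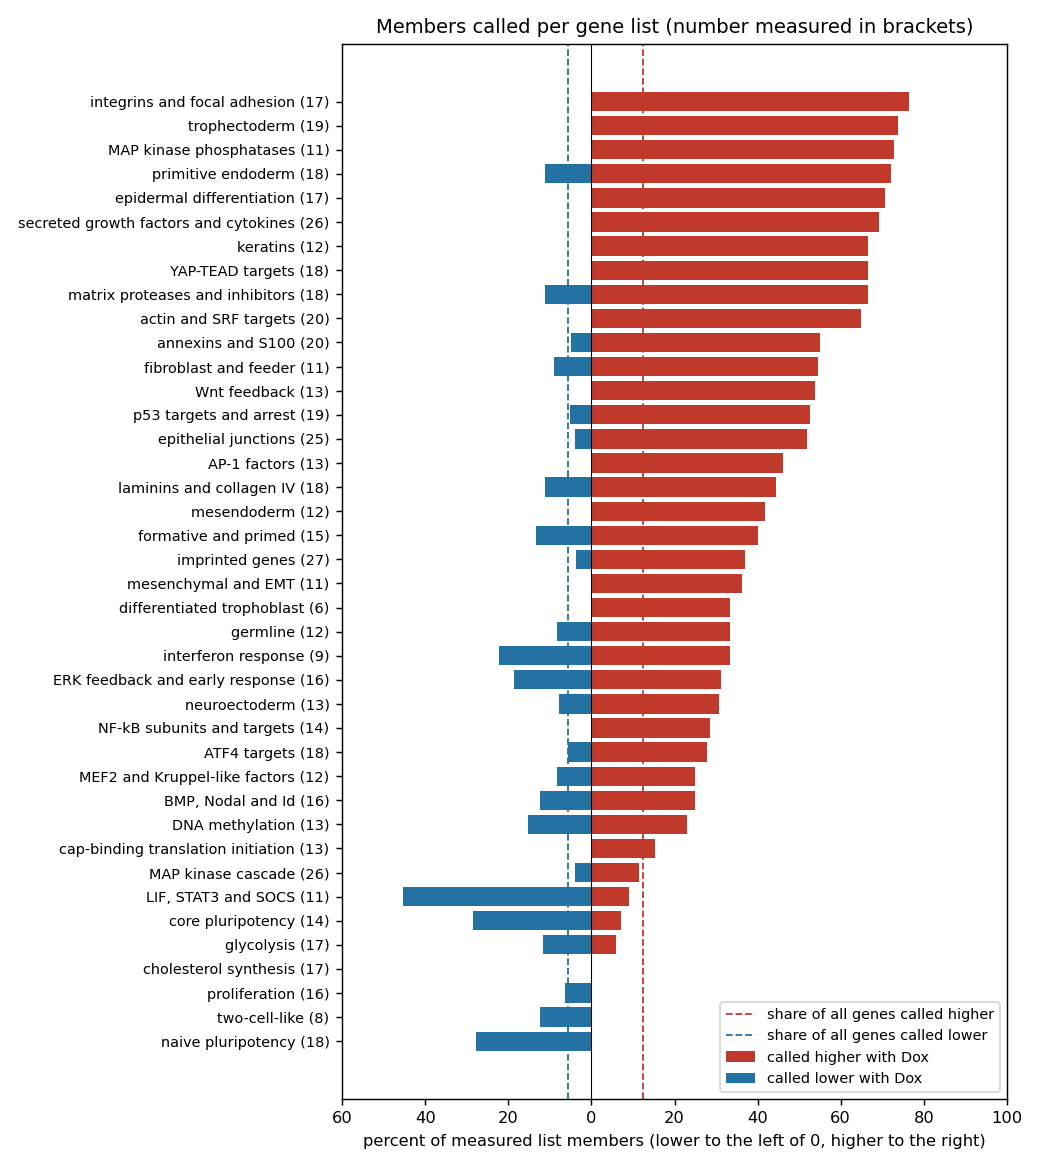
Share of the measured members of each of 40 gene lists called higher (red, to the right) or lower (blue, to the left) with Dox, in percent, with the number of measured members in brackets; dashed lines mark the shares over all genes tested, 12.3% and 5.59%. Adhesion, trophectoderm, phosphatase and epithelial lists lie far to the right, and LIF-STAT3, core and naive pluripotency genes extend furthest to the left. The lists were picked with earlier results of these data known, and the distance from the dashed lines was not tested.

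Genes of extraembryonic lineages were examined next. Of 19 measured trophectoderm genes 14 rose and none fell. Cdx2, the transcription factor that specifies trophectoderm, read 0.43, 1.57 and 0.48 with Dox and -6.82, -6.99 and -6.68 without Dox, where no array detected it. It rose at least 55.8-fold (adjusted p = 6.83e-10), above its wild-type mean of -3.18. Gata3, its partner in that lineage, rose at least 57.3-fold, Esx1, a placental homeobox gene, 43.4-fold, Plet1 41.1-fold and Ascl2 2.36-fold. The smaller rises were those of Eomes (2.05-fold) and Tead4 (1.92-fold), and Gata2, Tfap2c and Ets2 were not called. Tfap2a rose 1.68-fold, and in EGFP cells with Dox against null cells it was higher too (log2 0.94). Among 6 genes of differentiated trophoblast, Rhox6 and Rhox9 rose 29.4- and at least 18.3-fold, while Prl3d1, Prl3b1, Gcm1 and Ada lay between -0.34 and 0.11. The summed level of 7 trophectoderm markers was 322 to 384 with Dox and 7.51 to 18.4 without Dox, against 174 to 178 in wild-type cells. This sum follows the bright keratin gene Krt18 far more than Cdx2, and so does not stand for each marker. Cdx2, Gata3 and Elf5 were undetected on every array without Dox. The part of such markers in the other results was not tested.

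Of 18 measured primitive endoderm genes 13 rose and 2 fell, with a median change of 2.25, or 1.32 with undetected values at their bound. Of the 7 detected on all 15 arrays 4 rose and 2 fell. Signals stayed low for the defining factors. Gata6 read -1.34, -1.70 and -1.63 with Dox and -4.30, -3.79 and -4.35 without Dox, a rise of at least 6.01-fold. Foxa1 and Foxa2 rose at least 8.92- and at least 7.30-fold, Sox17 at least 4.52-fold and Gata4 1.79-fold, all from no or weak detection, and Sox7 fell 1.84-fold. The endocytic receptor gene Lrp2 rose 21.7-fold. The summed level of 6 endoderm markers was 0.818 to 0.977 with Dox and 0.470 to 0.527 without Dox.

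**Figure D4:**
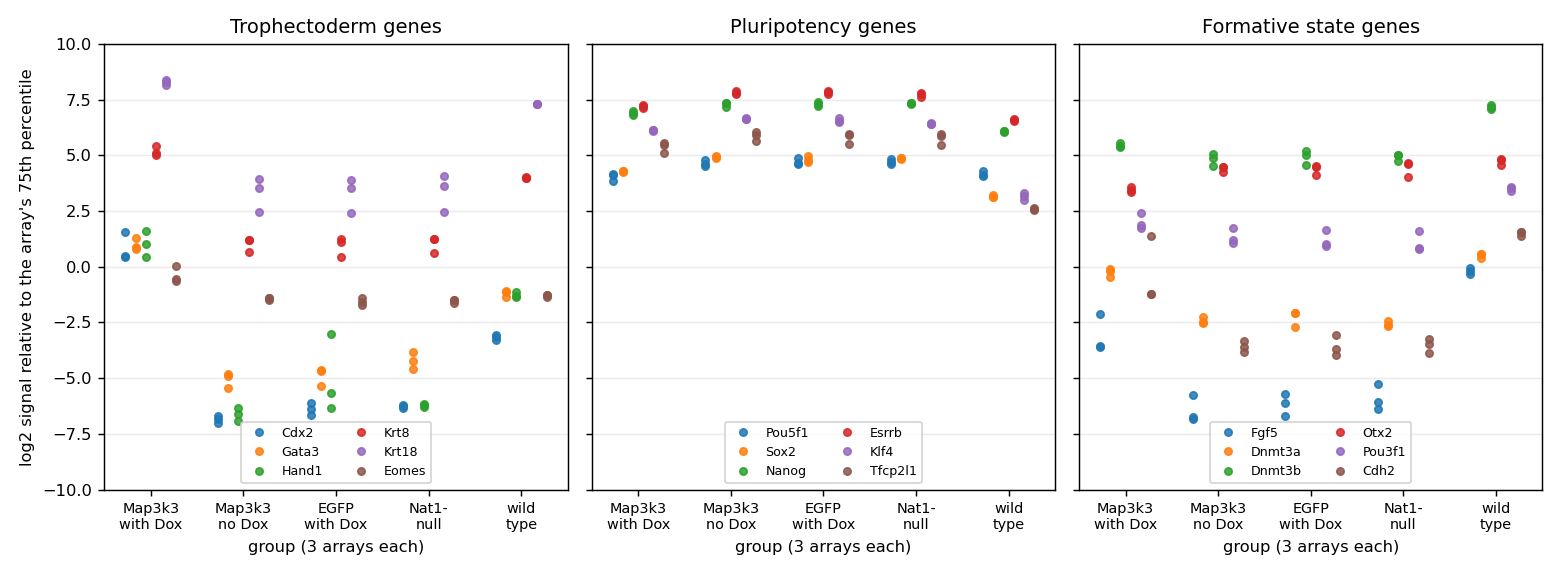
Signals (vertical axis, log2 relative to the array's 75th percentile) of trophectoderm, pluripotency and formative-state genes on the 3 arrays of each group, from left to right Map3k3 with Dox, Map3k3 without Dox, EGFP with Dox, Nat1-null and wild type. Cdx2 is at 0.43 to 1.57 with Dox and averages -6.83 without Dox, while Pou5f1, Sox2 and Nanog differ by less than 1 unit between Map3k3 cells with and without Dox.

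Some pluripotency genes fell, by small factors. None of 18 naive genes rose, 5 fell, and the other 13 all lay below 0, between -0.57 and -0.14, so that the median was -0.53. The clearest was Fbxo15, with 3.72, 3.76 and 3.60 with Dox and 5.14, 5.23 and 4.98 without Dox, a 2.69-fold fall. The metabolic gene Tdh fell 1.86-fold. The factors at the core of the network moved less. Pou5f1 read 3.86, 4.11 and 4.18 with Dox and 4.53, 4.63 and 4.79 without Dox, 1.52-fold lower, just past the fold minimum (adjusted p = 0.000959). It was below that minimum without array 1 with Dox (-0.51), without array 3 without Dox (-0.53) and with quantile normalization (-0.53). Sox2 fell 1.57-fold (log2 change -0.65), a call lost with slide row as a block (-0.56) and with quantile normalization (-0.58). Nanog, at 6.83, 6.89 and 7.00 with Dox and 7.35, 7.18 and 7.36 without Dox, differed by -0.39 and did not reach the fold minimum. Klf4 and Tfcp2l1, which are far higher in null than in wild-type cells, changed by -0.54 and -0.50. They stayed above their wild-type means of 3.16 and 2.60, at 6.12 and 5.37 with Dox. Fgf4 and Lin28a fell 1.69- and 1.74-fold.

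Genes of the LIF-STAT3 pathway, which sustains naive cells, also fell in part. Of 11 genes 5 fell and 1 rose. Lifr, the receptor, read 2.68, 2.82 and 2.62 with Dox and 3.61, 3.72 and 3.44 without Dox, a 1.84-fold fall, and the target genes Socs3 and Pim3 fell 1.84- and 1.98-fold. Jak2 rose 2.22-fold. The formative state, which follows the naive one, was only partly represented. Of 15 genes 6 rose and 2 fell, and 4 rose without array 2 with Dox. Fgf5 was detected with Dox at -3.55, -2.10 and -3.61 but not without it (-6.85, -5.74 and -6.72), and rose at least 3.71-fold, well below its wild-type mean of -0.19. Dnmt3a, a de novo DNA methyltransferase, rose 4.44-fold, and Sox4 10.3-fold. Otx2, by contrast, fell 1.93-fold, and Dnmt3l and Tet1 fell 2.72- and 1.67-fold.

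Other developmental and stress lists gave mixed counts. Of 27 imprinted genes 10 rose and 1 fell. Igf2 rose at least 11.5-fold, Dlk1 at least 12.5-fold, Nnat 5.04-fold and Peg10 3.91-fold, while H19 and Meg3, which both averaged 5.67 in wild-type cells, averaged -4.37 and -5.00 with Dox and -5.14 and -5.09 without Dox and were not called. Of 19 p53 targets and arrest genes 10 rose and 1 fell, led by Gadd45g (34.4-fold), Plk2 (6.57-fold) and the cell-cycle inhibitor gene Cdkn2b (6.61-fold), with Cdkn2a at 2.70-fold. Of 13 Wnt pathway genes 7 rose, but 3 did without array 2 with Dox, and the strong ones were the antagonist gene Dkk1 (at least 29.7-fold) and the ligand gene Wnt7b (at least 25.6-fold). Mesendoderm genes counted 5 rises of 12, and 2 without array 2 with Dox. The interferon-inducible gene Gbp2 rose at least 21.2-fold, but Ifitm1 fell 2.13-fold, and 3 of 9 genes of that list rose and 2 fell. Among 13 neuroectoderm genes Sox11 and Nes rose 12.8- and 3.57-fold and Tubb3 fell 1.97-fold.

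Fibroblast and feeder genes counted 6 rises and 1 fall among 11, with Col1a1 up 3.01-fold and Thy1 down 2.55-fold. The summed level of 7 fibroblast markers was nevertheless lower, at 1.32 to 1.70 with Dox and 2.34 to 2.51 without Dox. Thy1 was the only marker of the 7 that was called lower, so the sum does not stand for the set. Postn, Dcn and Lum were undetected on every array of both groups, and Col1a2 on every array without Dox only. Housekeeping lists were called in shares between 0% and 17.6%, beside 17.9% of all genes. None of 17 cholesterol synthesis genes was called by limma, with changes between -0.40 and 0.40, and of 16 proliferation genes 1 was called, with a median of -0.31. Of 17 glycolysis genes 3 were called, with Pfkp falling 2.03-fold, and of 13 cap-binding translation genes 2, of which Eif4g3, a paralogue of eIF4G, read 1.58, 1.72 and 1.57 with Dox and 0.00, -0.56 and 0.43 without Dox and rose 3.18-fold. In all, 279 of 599 measured list members were called. The lists were picked with earlier results of these data known, so this share is not set against the 17.9% of all genes.

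Dox itself was also present in the EGFP cells. In those cells against null cells without a transgene, 1 gene of 14431 was called (0.00693%), Tfap2a, and 1048 had an unadjusted p under 0.05. The uninduced Map3k3 line against null cells gave 0 calls by limma, with 2105 genes at an unadjusted p under 0.05. All null arrays and array 3 of the EGFP cells lay on a different slide from the Map3k3 line. The first of these comparisons thus ran partly, and the second wholly, between slides. The change on induction was then tested against the change in EGFP cells, a difference of differences in which no array enters both changes. It was called for 2266 genes (15.7%), 1571 higher (10.9%) and 695 lower (4.82%). With slide as a block 1596 genes were called, and with slide row as a block 1842. Without a block, Anxa1 differed by 8.60 in this test (limma adjusted p = 1.09e-05), Cdx2 by 7.77, Fosl1 by 3.54, Dusp4 by 3.23 and Spic by -3.03. Of the 8 phosphatase genes that rose 7 passed it, of the 14 trophectoderm genes 13, and of the 18 secreted factors 15.

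The last comparison asks how the induced changes lie relative to those that distinguish null from wild-type cells, a contrast that shares no array with the induction. In null cells 5463 genes were called (37.9%), 2501 higher (17.3%) and 2962 lower (20.5%). Of the 1771 genes that rose on induction, 1105 were lower in null than in wild-type cells, which is 62.4% of the rises and 37.3% of the genes lower in null cells. Of the 807 that fell, 294 were higher in null cells, which is 36.4% of the falls and 11.8% of the genes higher there. Changes in the same direction were fewer, with 120 genes higher in both and 136 lower in both. Opposite changes thus numbered 1399 and shared ones 256, and 923 of the genes called on induction were not called between null and wild-type cells.

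Of the 1105 genes that rose and were lower in null cells, 504 were not called with Dox against wild-type cells. Only 209 of the 1105 were called above wild-type cells with Dox, and a larger number were called below them. The single genes that follow are examples and do not stand for these counts. Dusp14 averaged 2.32 with Dox and -1.38 without Dox, against 1.51 in wild-type cells. Krt18 averaged 8.28 with Dox and 3.31 without Dox, against 7.30 in wild-type cells. Tagln reached 3.48 with Dox, against 1.67 without Dox and 6.05 in wild-type cells, so it stayed below the wild type. Lce3d averaged 1.49 with Dox and -2.65 without Dox, against -2.85 in wild-type cells, and Klk10, a kallikrein protease gene, 1.33 with Dox and -1.90 without Dox, against -1.88 in wild-type cells. Neither gene was called between null and wild-type cells.

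Some genes passed the detection limit only with Dox. For 146 of the 14431 genes tested, all of them called higher, every array with Dox and no array without Dox was above background. Of these, 120 were also undetected on all arrays of null and EGFP cells, 111 were detected on all 3 wild-type arrays and 25 on none. Plau, Lce3a and Klk6 belong to those undetected in wild-type cells, and Csf1, Krt20 and Gbp2 to those detected there. In the other direction 56 genes that fell were detected on every array without Dox and on none with Dox, among them A2m and Adamtsl1.

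Probes without a gene symbol moved mostly downwards. Of 10839 tested, 1446 were called (13.3%), 375 higher (3.46%) and 1071 lower (9.88%). Probes named by mm9 coordinates numbered 5811, with 164 higher and 717 lower. For the interval chr6:67155508-67216941, 4 probes fell by 3.68, 3.18, 2.93 and 2.46 on the log2 scale, and no gene name was available for it.

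**Figure D5:**
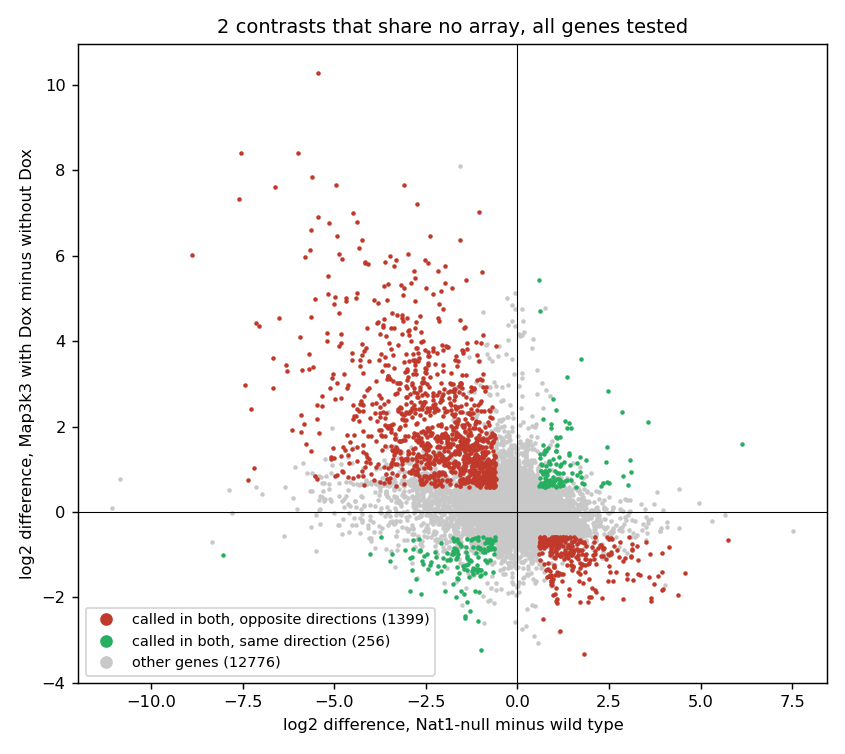
Change on induction of Map3k3 (vertical axis, log2, with Dox minus without Dox) against the change in Nat1-null cells (horizontal axis, log2, null minus wild type) for all genes tested; no array enters both axes. Red points are the 1399 genes called in both with opposite signs and lie mostly in the upper left, green points are the 256 called in both with the same sign, and grey points are all others.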

How the data were processed

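Total RNA of 15 samples was hybridised to single-colour Agilent arrays, 3 per group, and the deposited spot intensity values were made by the authors with Feature Extraction 11.5.1.1, per the file headers. The authors' deposited log2 values of the same arrays served as an alternative. Processed signals were taken to log2 and the array's 75th percentile was subtracted. Control and outlier-flagged spots were left out, and spots of a probe were averaged. Of 55681 probes 28331 had a gene symbol. Kept probes exceeded background clearly on each array of 1 or more groups, and the brightest kept probe stood for its gene. All 15 arrays entered 1 limma fit (version 3.58.1, R 4.3.3) with a mean per group, two-sided moderated tests and Benjamini-Hochberg adjustment over all 14431 genes. The pipeline was tested on simulated data.

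Bounds raise undetected arrays to the lowest signal well above background on the same array. Named genes were Map3k3, Eif4g2, the 15 largest rises and 15 largest falls without overlap of the arrays, and members of 40 lists as examples. Some of these genes are not reported here. The members and lists were chosen with earlier results of these data known. Replicate numbers come from the labels. Same-numbered arrays with and without Dox deviated together from their group means (r = 0.168, 0.338 and 0.258). Arrays 1 and 3 did so across numbers too (r = 0.133 and 0.0938), while array 2 set against 1 or 3 gave -0.296 to -0.197. The labels do not say that the numbers pair the samples, so the main fit has no block. A fit with the replicate as a block was run as an alternative. The lowest correlation between arrays of a group over probes was 0.986. Alternatives covered background correction, scaling, dim probes, blocks, fold minimum and each array left out.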

Additional observations from a re-analysis of the deposited data

How the results depend on the processing

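Of 299 called genes that are named or listed, 188 were called under every alternative that gave them a value, 119 under 22 alternatives and 69 under 21, since detection on all 15 arrays left those out. The same held for 29 of the 30 largest changes, 19 of the 30 having no value in that setting, and Spink1 was the exception. Leaving out each array in turn gave 2391 to 2630 calls, 1630 to 1788 rises and 739 to 842 falls. It gave 2029 to 2295 calls against the EGFP change and 1307 to 1424 genes changed oppositely in null cells. The replicate block gave 2786 calls (1875 rises, 911 falls), 2573 of them shared, and moved no count by over 1.5 times. The slide row as a block gave 2373, with 1842 against the EGFP change. The slide as a block gave 2572, with 1596 against the EGFP change. With normexp background correction, run on median spot signals, 501 genes fell. Requiring detection on all 15 arrays left 1718 calls, 1145 rises and 818 opposite changes, since fewer genes were tested. Without a fold minimum there were 5747 calls, 2604 upwards (45.3%) and 3143 downwards, with 3454 against the EGFP change and 3202 opposite changes. A 2-fold minimum gave 1506 calls, 295 falls, 1436 against the EGFP change and 893 opposite changes, with 80.4% of calls rising. Mesp1, at 2.92, was at -0.00729 in row 1 alone (adjusted p = 0.994); the cause was not tested. The fits on 6 arrays or 1 slide cannot give the comparisons with other groups. Probes near background carry only bounds.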

Other observations

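Some genes that rose lie next to each other among the genes tested. Beside the run from Lce3a to Crct1 on chromosome 3, Proser2, Echdc3, Usp6nl, Celf2 and Gata3 rose as 5 consecutive genes on chromosome 2. Runs of 4 were Klk10, Klk9, Klk8 and Klk6 on chromosome 7, Hcfc1r1, Tnfrsf12a, Cldn6 and Cldn9 on chromosome 17, and Mdfic, Tes, Cav2 and Met on chromosome 6. How many such runs would be found among genes in random order was not tested. Of 516 called genes with several probes, 1 (Cyp2j13) had a probe called in the other direction.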
